A study of Gallus gallus with 20 samples.

Results

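The kidney RNA-seq table of this chicken (Gallus gallus) series quantified 1350 regions that carry a name made of the word cluster and a number. Of these, 813 (60.2%) have an annotated length under 2000 bases, and they are described here beside the 537 longer ones. The rule for them uses the row's name and length, among 79570 rows of the table, and no read count, although it was set with earlier results of these data known. The labels do not say what the clusters are. The series title concerns piRNAs of the kidney, but nothing in the table ties a single numbered row to piRNAs, and the rows are called numbered clusters below.

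PIWI-interacting RNAs, or piRNAs, are small RNAs that guide PIWI proteins to transposon and other transcripts, and they are best known from the germline. Many of them arise from piRNA clusters, genomic regions whose long single-stranded transcripts are cut into piRNAs. RNA-seq reads on such a region count fragments of longer RNA from that place and not the piRNAs themselves. A region can therefore be rich in piRNAs and carry few RNA-seq reads, or carry many reads for another reason.

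The values come from a single RNA-seq library of adult kidney tissue, made from total RNA. The labels give no sex, strain, genotype or number of animals. The library held 21832272 estimated reads. The other 19 samples of the series are small RNA libraries, made from kidneys of both sexes, oxidized or unoxidized, and from testis or immunoprecipitates of the PIWI proteins CILI and CIWI, and were not analysed here. With 1 library no difference between samples could be tested, and intervals on reads and shares are exact 95% intervals that cover counting error only. No sequence or coordinate of a cluster is given in the table, so their genes, repeats and neighbours in the genome are not described.

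Most of the short clusters drew no RNA-seq reads in kidney. Of the 813, 471 (57.9%) had an estimated read count of 0, and the median over all of them was 0 reads and 0 TPM (reads per effective length, scaled to a fixed sum over the whole table). The upper quartile was 4 reads and 0.326 TPM. Over all rows of the table the median was also 0 TPM, with 51.0% of rows without reads. Among rows under 2000 bases, reads were absent from 48.5% of gene transcripts and 66.3% of assembled transcripts (both defined below). Their median lengths were 1229 and 239 bases, against 975 for the short clusters.

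The clusters with reads were spread over a very wide range. Of the 342 with any reads, 2 had less than 1 read, 99 had from 1 to under 3, 96 from 3 to under 10 and 114 from 10 to under 100. A further 26 had from 100 to under 1000 reads, and 5 had at least 1000. As shares of the 813, the last 2 classes were 3.20% and 0.615%, against 12.7% and 5.18% of all rows of the table. From 10 to under 100 reads the shares were 14.0% and 14.7%. The lower classes went the other way, with 12.2% against 7.76% from 1 to under 3 reads and 11.8% against 8.63% from 3 to under 10. The median over the 342 was 7 reads and 0.562 TPM. Among all rows of the table with reads, the median level was 2.28 TPM.

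A cluster counted as detected if it had 3 or more reads and reached 1 TPM. This held for 125 short clusters (15.4%), against 28.5% of all rows of the table and 22.8% of rows of any kind under 2000 bases. The median level of the 125 detected clusters was 3.12 TPM, from a median of 41.9 reads. Of the 813, 28 (3.44%) reached 10 TPM and 5 (0.615%) reached 100 TPM, where the shares over all rows of the table were 11.9% and 1.09%.

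The lengths of the short clusters were not spread evenly. Of the 813, 394 (48.5%) had lengths in the last 100 bases before 1000, and 152 (18.7%) in the last 100 bases before 2000. Within these bins they crowded toward the upper end, with 312 clusters in the last 50 bases before 1000 and 113 in the last 50 bases before 2000. From 1000 to under 1100 bases there was no cluster at all, and from 1000 to under 1500 bases there were 10. The median length was 975 bases. These length bins were chosen after the lengths were seen.

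**Figure D1:**
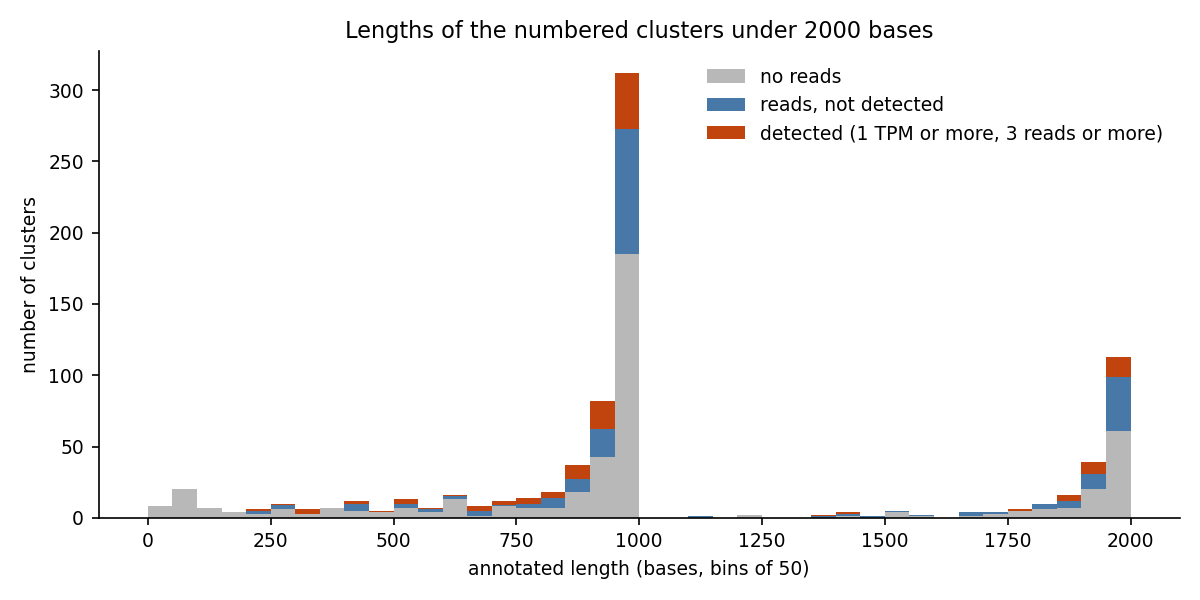
Number of clusters (vertical axis) by annotated length in bases, in bins of 50 bases (horizontal axis), for the 813 clusters under 2000 bases, coloured by whether a cluster had no reads, had reads without being detected, or was detected. The tallest bin, with 312 clusters, ends just under 1000 bases, and a second peak of 113 ends just under 2000 bases.

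The same crowding continued above 2000 bases. The shortest clusters outside the limit of 2000 bases were cluster178 of 2313 bases with 0 reads, cluster452 of 2491 bases with 320.5 reads and 8.83 TPM, and cluster721 of 2527 bases with 42.0 reads and 1.14 TPM. Just inside the limit, cluster363, cluster747 and cluster1196, the longest ones, had no reads, and 3 reads on them would equal 0.105 TPM. In each of the 10 windows of 1000 bases below 10000 bases, the last 100 bases of the window held from 57.1% to 84.6% of its clusters. Gene transcripts here are rows named by an NM, NR, XM, XR or ENSGALT identifier, and assembled transcripts are rows named MSTRG. For both together, the share was 3.44% in the first window and from 6.82% to 9.59% in the others. Of the 181 clusters of 10000 bases or more, 64.1% also had lengths within the last 100 bases before a multiple of 1000. The limit of 2000 bases thus falls into a gap in the lengths.

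A second group, of very short rows, stood at the other end. In all, 55 clusters were shorter than 300 bases, and 28 of them were shorter than 100 bases. The shortest was cluster868 with 14 bases, less than the length of a piRNA, followed by cluster1242 with 32 and cluster185 with 33 bases. None of these had reads. The shortest cluster with a read was 212 bases long, and all 42 shorter clusters were at 0. The shortest row of any kind with reads in the whole table was 128 bases long.

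The effective length, which Salmon uses in place of the annotated length, is the number of positions at which a fragment could start. It was 198.6 bases less than the annotated length for short clusters of 1000 bases or more. A row shorter than that difference can receive only fragments shorter than that. The effective length fell to 1.26 bases for the cluster of 153 bases, and for 35 clusters of up to 122 bases it was left equal to the annotated length. A count of 0 on such a row does not show that the place was silent.

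This correction gave a read a very different worth along the length range. One read made 0.585 TPM on a row of 300 bases, 0.209 TPM at 500 bases, 0.0789 TPM at 1000 bases and 0.0351 TPM at 2000 bases. The detection threshold of 1 TPM was therefore met by 1.71 reads at 300 bases, 4.78 reads at 500 bases, 12.7 reads at 1000 bases and 28.5 reads at 2000 bases. Both conditions of the rule mattered: 4 clusters of 212 to 298 bases had 1.19 to 2.46 TPM from fewer than 3 reads, and 116 clusters of 586 to 1998 bases had at least 3 reads, and at most 28, but less than 1 TPM.

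**Figure D2:**
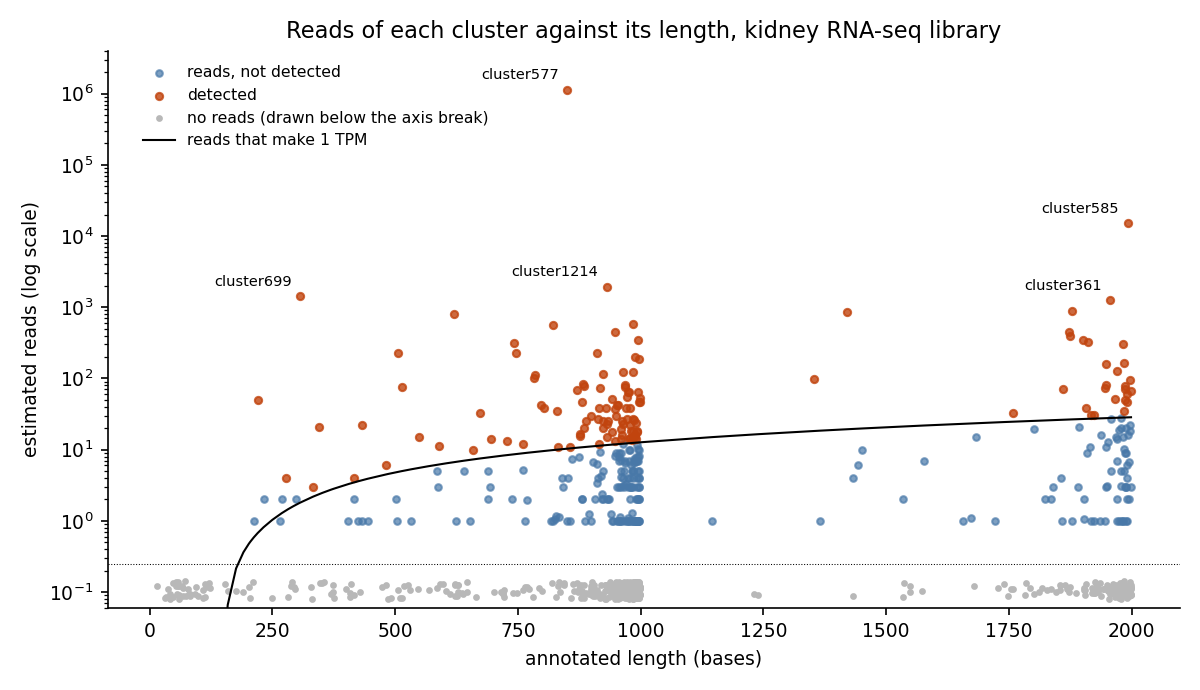
Estimated reads (vertical axis, log scale) against annotated length in bases (horizontal axis) for each cluster under 2000 bases, with clusters without reads drawn in a band below the dotted line and the number of reads that makes 1 TPM as a black curve. The curve starts below 300 bases and stands at 0.674 reads at 220 bases, 1.71 reads at 300 bases and 28.5 reads at 2000 bases. Cluster577 lies far above all others at 1138714 reads.

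Examples with similar reads show the size of the effect. Cluster1133 of 506 bases had 227 reads and 46.6 TPM. Cluster1286 of 747 bases had 230 reads and 26.5 TPM. Cluster906, of 1982 bases, had more reads than either, 306, and only 10.9 TPM. The extreme case was cluster685 of 220 bases, with an effective length of 42.6 bases. Its 49 reads (36.2 to 64.8) put it in place 55 among the short clusters by reads and in place 6 by TPM, at 72.8 TPM (53.8 to 96.2). Computed from annotated length, the same reads gave 24.9 TPM and place 18.

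The share of short clusters with reads was lower under 300 bases than in each longer length class. Under 300 bases, 87.3% of clusters had no reads, and 3.64% were detected. From 300 to under 500 bases, 63.3% of 30 clusters had none and 20% were detected. From 500 to under 750 bases the shares were 58.9% and 19.6% of 56 clusters, and from 750 to under 1000 bases 56.2% and 16.6% of 463. From 1500 to under 2000 bases they were 54.3% and 13.6% of 199 clusters. Among these classes from 300 bases up, both the share without reads and the share detected were lower in each longer class, while the reads needed for 1 TPM grew. The 10 clusters of 1000 to under 1500 bases, of which 3 had no reads and 2 were detected, are too few to place in this order.

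Over all 813 clusters, the rank correlation of length was 0.09 with reads and 0.03 with TPM. Among the 342 clusters with reads it was 0.07 with reads and -0.23 with TPM. Among the longer clusters the rank correlation of length was 0.40 with reads and 0.18 with TPM, over 537 clusters. All these points share 1 library, TPM is itself divided by length, and more than 1 in 2 of the short clusters are tied at 0, so the coefficients are given as a description without a p-value.

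The leading length groups differed in reads more than in level. Of the 394 clusters of 900 to under 1000 bases, 166 had reads, with a median of 6.85 reads and 0.558 TPM. Of the 152 clusters of 1900 to under 2000 bases, 71 had reads, with a median of 11 reads and 0.405 TPM. At least 10 reads were found on 16.0% of the former and 25% of the latter. At the threshold of 1 TPM with 3 reads the shares were 14.97% and 14.47%. Without cluster585, which lies in the latter group, the former had 16.5 reads per kb of annotated length in all, and the latter 13.0. The latter group held 19128 reads with cluster585 and 3870 without it. The former kept its own leading cluster, cluster1214, and held 6305 reads with it and 4352 without. The order of the groups in reads per kb therefore depends on which leading clusters are left out.

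Beside gene transcripts and assembled transcripts of the same length class, a smaller share of the clusters was detected. From 750 to under 1000 bases, 16.6% of clusters were detected, against 31.1% of gene transcripts and 22.1% of assembled transcripts. From 1500 to under 2000 bases the shares were 13.6%, 38.9% and 43.5%. Lengths still differed within a class, and at the median 1 TPM took more reads on clusters. It took 12.2 reads on clusters, 10.8 on gene transcripts and 10.4 on assembled transcripts of 750 to under 1000 bases. For rows of 1500 to under 2000 bases it took 27.9, 24.5 and 24.2 reads. At least 3 reads were found on 31.3% of clusters, 40.0% of gene transcripts and 33.7% of assembled transcripts of 750 to under 1000 bases. From 1500 to under 2000 bases they were found on 33.7%, 55.5% and 59.6%. Assembled transcripts were, by their identifiers, built from RNA-seq reads, so their presence in the table can itself depend on having been seen as RNA. Whether that was in this library is not given in the sources used here.

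**Figure D3:**
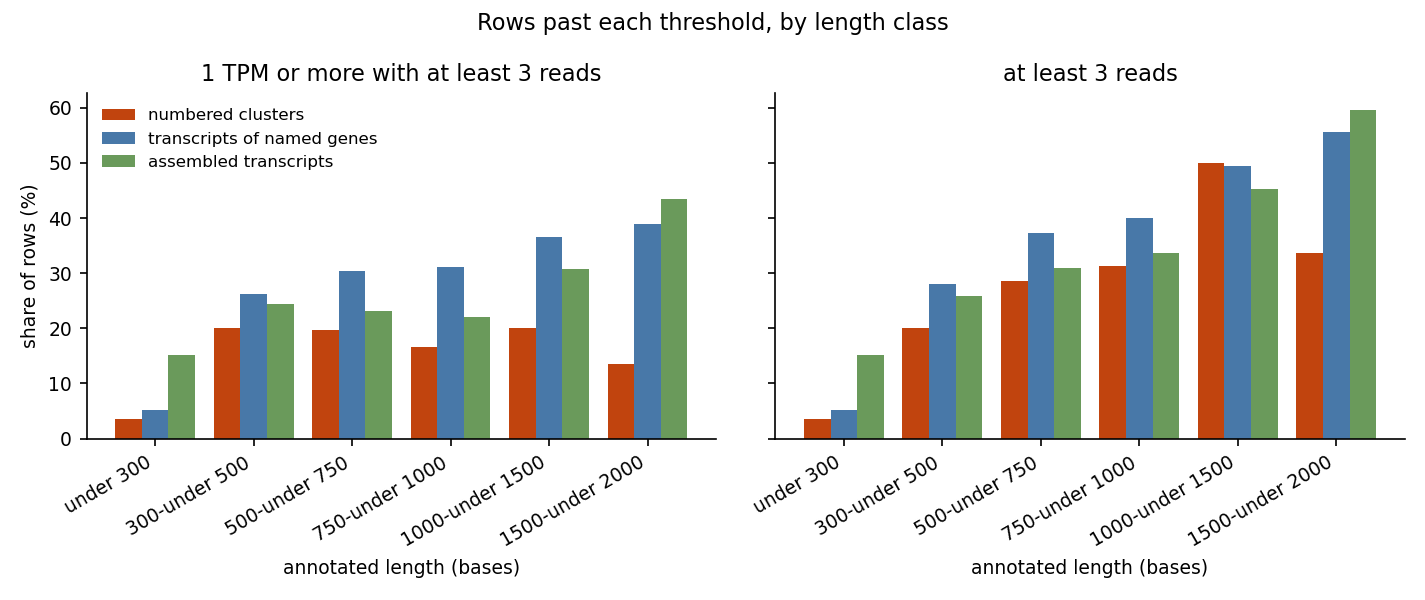
Share of rows in percent (vertical axes) that were detected at 1 TPM with at least 3 reads (left) or that had at least 3 reads (right), by class of annotated length in bases (horizontal axes), for numbered clusters, gene transcripts and assembled transcripts. The legend calls the gene transcripts transcripts of named genes, but they were taken by identifier alone. At 1500 to under 2000 bases the detected share was 13.6% for clusters, 38.9% for gene transcripts and 43.5% for assembled transcripts.

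In all, the short clusters held 1171679 reads, 5.37% (5.36 to 5.38) of the library, and 11.3% of TPM. They held 56.5% of the reads of all numbered clusters with 8.70% of their total length, and 96.7% of their TPM. Nearly all of this came from a single row. Cluster577, of 851 bases, had 1138714 reads (1136623 to 1140807), which was 97.2% (97.2 to 97.2) of the reads of all short clusters. It had more reads than any other row of the table, including every gene transcript, and at 110255 TPM (110052 to 110457) it was the row with the second highest TPM. The row above was a gene transcript under 300 bases at 153288 TPM, in a class where no row had more than 16807 reads. Cluster577 drew 74.6 times the reads of the next short cluster and 1.26 times those of all 537 longer clusters together. Its estimated count was not a whole number, as happens where Salmon divides reads among rows that share sequence, and the table does not record which rows these were. What lies at its place in the genome was not determined, and no sequence was at hand to look for a gene, a repeat or a structural RNA in it.

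Without cluster577, the other 812 clusters held 32965 reads, 0.151% (0.149 to 0.153) of the library's reads, and 0.262% of its TPM. Their mean density fell from 1317 to 37.1 reads per kb of annotated length. Of these reads, 46.3% (45.7 to 46.8) lay on cluster585, of 1992 bases, with 15259 reads (15018 to 15503) and 538 TPM (529 to 546). This was place 101 by reads among all rows of the table. With this cluster left out as well, 17707 reads remained on 811 clusters, 19.97 reads per kb.

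Below this pair the reads were shared by more clusters. Cluster1214, of 931 bases, had 1953 reads (1867 to 2042) and 168 TPM (161 to 176). Cluster699, of 306 bases, had 1436 reads (1363 to 1512) and stood above cluster585 in TPM, at 800 TPM (760 to 843), with fewer than 1 in 10 of its reads. That order turned with annotated length, where cluster699 had 524 TPM and cluster585 had 856 TPM. Cluster361, of 1956 bases, was the last with over 1000 reads, at 1255 reads and 45.1 TPM.

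The next by reads were cluster766 of 1878 bases with 885 reads and 33.3 TPM, and cluster149 of 1420 bases with 854 reads and 44.2 TPM. Cluster1395, of only 620 bases, had 793 reads and 119 TPM (111 to 127), so it was the fifth by TPM. Cluster1079 of 984 bases and cluster1159 of 822 bases followed with 583 and 555 reads, at 46.9 and 56.2 TPM. The intervals of the last pair overlapped in reads (537 to 632 and 510 to 603) but not in TPM (43.2 to 50.9 and 51.7 to 61.1).

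The other 10 of the leading 20 had from 227 to 455 reads. Among them, the clusters of under 1000 bases stood higher in TPM than the longer ones. Cluster1358 of 947 bases had 455 reads and 38.4 TPM, cluster1053 of 743 bases 313 reads and 36.3 TPM, and cluster1421 of 994 bases 352 reads and 28.0 TPM. Those of 1873 to 1982 bases, cluster564, cluster815, cluster409, cluster667 and cluster906, had 447, 393, 345, 320 and 306 reads and from 10.9 to 16.9 TPM. A further 11 clusters of 782 to 1985 bases had 102 to 224 reads and 4.57 to 19.9 TPM. All 31 clusters with at least 100 reads were detected, which is fixed by the limit, since 28.5 reads make 1 TPM at 2000 bases. Of the leading 20 by reads, 16 were also among the leading 20 by TPM.

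**Figure D4:**
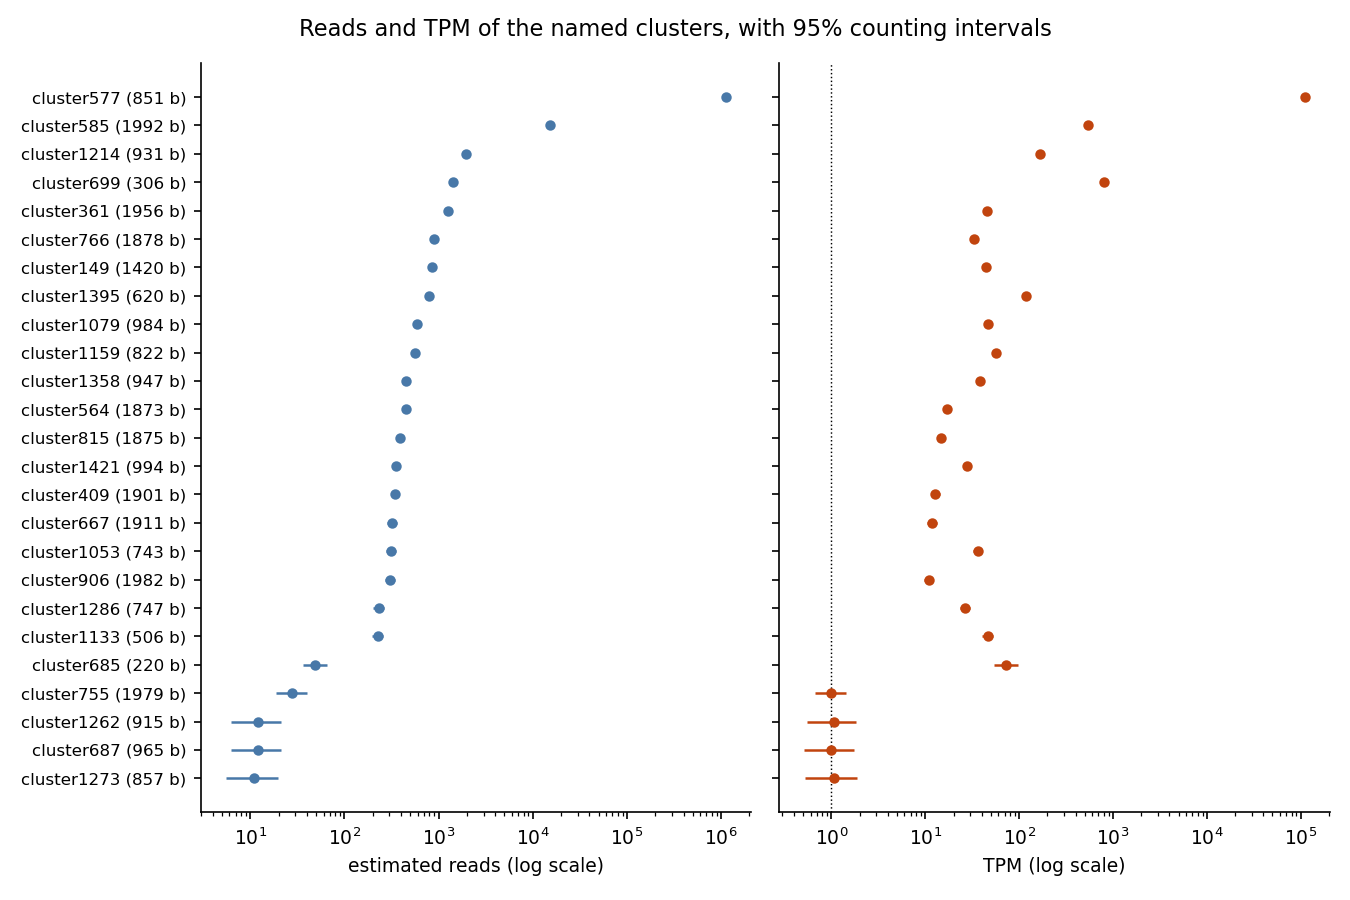
Estimated reads (left, log scale) and TPM (right, log scale) of the 25 named clusters with reads, ordered by reads, with the annotated length in bases (b) in brackets and bars for exact Poisson 95% intervals that cover counting error only. The dotted line marks 1 TPM, and short rows such as cluster699 at 800 TPM and cluster685 at 72.8 TPM stand to the right of longer rows with more reads.

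At the detection threshold the counts could not separate clusters. Cluster1262 of 915 bases with 12 reads and cluster1273 of 857 bases with 11 reads stood just above it, both at 1.06 TPM. Cluster755 of 1979 bases with 28 reads and cluster687 of 965 bases with 12 reads stood just below, both at 0.99 TPM. The intervals of all 4 included 1 TPM, which follows from choosing clusters next to it with so few reads. The 102 detected clusters not named here had 3 to 224 reads and 1.10 to 19.9 TPM. Of the 471 clusters without reads, 423 were 300 bases or longer, and for them 3 reads would have been from 0.105 to 1.42 TPM, with a median of 0.243 TPM.

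The concentration of reads can be read from the number of clusters that hold a given share. With cluster577, 1 cluster held 90% of the reads and 7 held 99%. Without it, 2 clusters held 50%, 44 held 90% and 187 held 99%. Without cluster585 too, a setting chosen after the values were seen, 10 clusters held 50% and 77 held 90%, and the leading one held 11.0%. The 782 clusters with under 100 reads held 4371 reads in all, 13.3% of the reads outside cluster577.

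**Figure D5:**
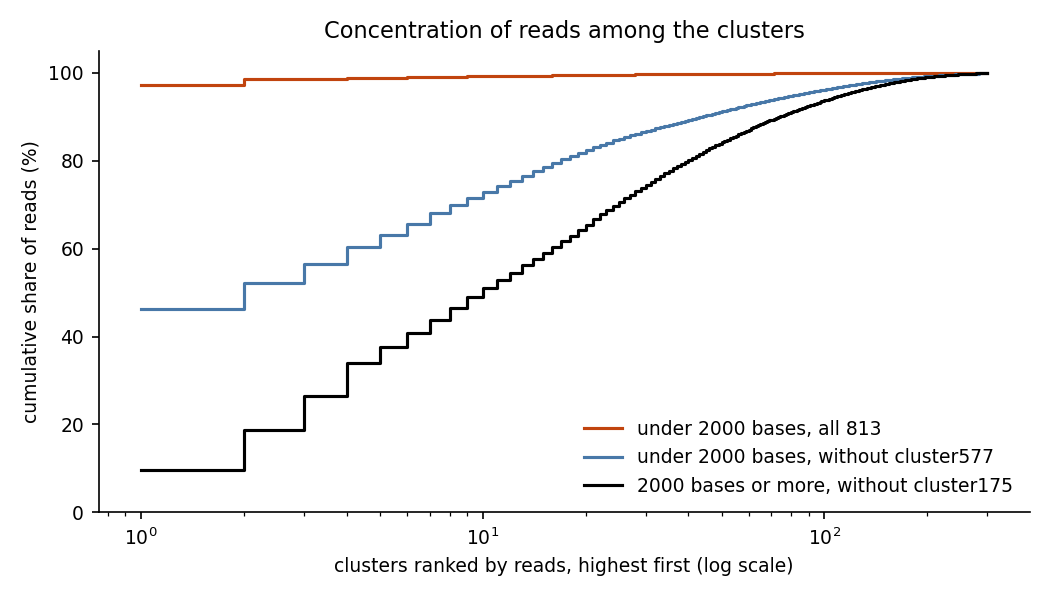
Cumulative share of reads in percent (vertical axis) over clusters ranked from the highest read count down (horizontal axis, log scale, up to rank 300), for all 813 clusters under 2000 bases, the same without cluster577, and the longer clusters without cluster175. The leading cluster holds 97.2%, 46.3% and 9.68% of the reads in the 3 sets.

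The longer clusters were also led by a single row, cluster175 of 15744 bases, which held 91.8% of their reads. Without it, 10 clusters held 50% and 74 held 90% of their remaining 73614 reads. These counts were close to those of the short clusters without their leading pair, 10 and 77, a setting chosen after the values were seen. With only cluster577 left out, the short clusters had 2 and 44. The sets also differed in that clusters with under 100 reads held 7.64% of the longer clusters' reads without cluster175. They held 24.7% of the short clusters' reads without the pair. Left without the leader on either side, the longer clusters had 2.23 times the reads of the short ones in all, while the short ones had 4.69 times the reads per kb of annotated length (37.1 against 7.90). Without cluster585 as well, the short clusters were at 19.97 reads per kb.

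Whether more of the short or of the longer clusters were detected depended on the measure. At 1 TPM with 3 reads, 15.4% of short and 10.6% of longer clusters passed, a ratio of 1.45, where 28.5% of all rows of the table did. At 3 reads alone, 29.6% of short clusters, 54.0% of longer clusters and 41.2% of all rows passed. The ratio of short over longer was then 0.549. At 10 reads alone it was 0.426. Reads were absent from 57.9% of the short and 34.3% of the longer clusters, and the median over the longer ones was 5 reads and 0.0299 TPM. A longer row collects more reads at an equal level, and needs more of them to reach 1 TPM, with a median of 98.7 reads in the longer class against 12.2 for clusters of 750 to under 1000 bases. The ratio of detected shares therefore does not say which class was more transcribed.

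Some of the reads were assigned jointly with other rows. Salmon splits reads that match several rows, which leaves estimated counts that are not whole. Of the short clusters with reads, 38.6% had a count that differed from a whole number by more than 0.001. The share was 60.9% for the longer clusters, 58.8% for gene transcripts and 10.8% for assembled transcripts under 2000 bases, and 56.0% for all rows with reads. Rows with more reads have more chances to share one, and the classes differ in reads. Among the 5 clusters with at least 1000 reads, cluster577, cluster585 and cluster699 had counts that were not whole, and cluster1214 and cluster361 had whole ones.

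The cluster numbers ran from 1 to 1462, and 112 numbers in that range had no row in the table used here. What the number stands for is not given by the labels. Short clusters were rare at low numbers and nearly universal at high ones: of the first 150 clusters by number 8 were short, in the fourth block of 150 numbers 64 of 148 were, and in the last 2 blocks all 225 were. The median length of all clusters fell from 21100 bases in the first block of 150 numbers to 992 bases in the sixth. The share of short clusters detected did not follow this order. It lay between 11.4% and 18.8% in the 10 blocks of numbers, and the share without reads lay between 48.8% and 63.3%. Cluster577 and cluster585 both stand in the fourth block, where the 62 other short clusters held 987 reads together. Outside this pair, the blocks from the third onward held 987 to 2900 reads each on their short clusters.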

How the data were processed

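The 20 samples were grouped by their titles, and only the adult kidney RNA-seq library, made by a TruSeq protocol per the labels' protocols, was analysed here. Per the submitters' processing notes, the authors quantified it with Salmon on the galGal6 build. How the clusters were defined, the Salmon version and its library type setting are not given there or in the labels. The deposited table gives, per the file headers, annotated and effective length in bases, estimated counts and TPM, which the authors scaled over all rows. TPM recomputed from the deposited estimated counts and effective lengths deviated by at most 9.85 over all rows, which is 0.00894% of the TPM of the highest cluster. Which row deviated most was not recorded, and 9.85 TPM is more than the median of 3.12 TPM of detected short clusters.

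Members were rows named cluster and a number with a length under 2000 bases. They, the length classes and the rules below were chosen with earlier results of these data known. Named clusters were the 20 with the most reads, the 15 with the highest TPM, the 3 longest, the 3 shortest, the 3 shortest of 2000 bases or more, and 2 on each side of 1 TPM. Cluster175 was named after its value was seen. Detected means 1 TPM or more with at least 3 reads. Counts were rounded for exact Poisson intervals, and shares of reads have exact Clopper-Pearson intervals at 95%. Without molecular identifiers, reads are not independent molecules, and error from splitting shared reads is not included. The steps were tested on simulated data, with Python 3.11.15, pandas 2.3.3 and scipy 1.17.1. The simulation gave every row some expected reads and left out rows of very short effective length. It therefore did not cover rows truly without reads or the shortest clusters. No p-value was computed, since there is 1 library.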

Additional observations from a re-analysis of the deposited data

How the results depend on the processing

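The share of library reads on short clusters was 5.27% with a limit of 1000 bases, 5.39% with 3000 bases, 5.39% over rows of 300 bases or more, 0.159% without cluster577 and 0.0856% without cluster585 too (both taken out of the library's total here, and the last chosen after seeing the data). The share of TPM was 17.5% over rows of 300 bases or more, 15.3% with annotated length and 0.295% without cluster577. For these settings TPM was scaled anew over the rows kept. At the deposited scale the share without cluster577 was 0.262%. The leading cluster held 99.05% of the reads with a limit of 1000 bases, 96.8% with 3000 bases, 46.3% without cluster577 and 11.0% without the leading pair, and the 10 leading ones held 99.6%, 98.8% and, without cluster577, 72.9%. Without cluster577, 44 clusters held 90% of reads, and 77 without the leading pair. The number detected was 241 of 813 at 3 reads alone and at 0.1 TPM with 3 reads, where 41.2% of all rows had at least 3 reads. Otherwise it lay between 96 and 148, in sets of unlike size. The 96 were among 604 clusters under 1000 bases, and the 148 among 758 with rows of 300 bases or more. The 148 exceed the 125 at the deposited scale because TPM was scaled anew without the rows under 300 bases. Only 2 clusters under 300 bases were detected at the deposited scale. The agreement at 241 is fixed, since 3 reads on the longest short clusters already make 0.105 TPM. The ratio of detected shares, short over longer, was 0.549 at 3 reads, 0.426 at 10 reads and 0.825 at 0.1 TPM. Over rows of 300 bases or more, the rank correlation of length was -0.03 with TPM and 0.02 with reads. Of 59 values under an alternative, 37 stayed within the limit set for them (counts and ratios within 1.5 times, shares of reads within their interval, TPM shares within 1%, correlations within 0.1). Some of the 37 could not have moved. The median TPM stays 0 while most clusters have no reads, and leaving out cluster577 cannot change the number without reads. No paired analysis was possible because only 1 library was analysed. At this depth, 3 reads on a cluster of 300 bases or more without reads would have been 0.105 to 1.42 TPM.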

Other observations

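Clusters with consecutive numbers were compared as a description, chosen after the data were seen. There were 592 pairs of short clusters whose numbers follow each other. Where the lower-numbered cluster was detected, in 90 pairs, the next one was detected in 18 (20%). Where it was not, in 502 pairs, the next one was detected in 76 (15.1%). The pairs overlap in their clusters and no test was made.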
